A study of Cricetulus griseus with 6 samples.

Results

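The genes described here centre on the early secretory pathway of CHO-K1 cells. That pathway holds the machinery that brings new proteins into the endoplasmic reticulum (ER), the coats and cargo receptors of transport vesicles, and the tethers and SNAREs that let vesicles dock and fuse. Some of the genes, such as Arf6, Stx4 and Vamp8, act at the plasma membrane, endosomes or lysosomes, and 2 SEC14-like genes entered by symbol alone. All were chosen by a rule on the gene symbol: every gene whose symbol begins with Sec, Srp or Stx and a digit, with Tmed or Vamp and a digit, with Copa, Copb, Cope, Copg or Copz, or with Trappc, Arfgap or Lman, together with Arf1 to Arf6 and Ssr2 to Ssr4. The rule found 88 genes among 14899 named genes on the array. Each was read from 1 probe set, that with the highest mean over the 6 arrays. Their identifiers all led to the same symbols in RefSeq's annotation of CriGri-PICRH-1.0.

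CHO-K1 is a line from Chinese hamster ovary that is used to produce secreted proteins and is known to lack the arginase activity that yields ornithine, the precursor of putrescine. Per the labels, 3 flasks of serum-free suspension culture held 1 mg/l putrescine (the "with" group) and 3 held the same medium with no putrescine (the "without" group), and RNA was taken on day 3. Arrays with putrescine are called P1 to P3 and arrays without it N1 to N3, by the replicate numbers of the labels. Both groups are wild-type cells of this 1 line, and the labels call the flasks biological triplicates without naming separate starting stocks, so p-values measure the spread between these flasks. Vimentin (Vim), high in mesenchymal cells, was at 12.03 to 12.10 on all arrays. The epithelial keratins Krt8 and Krt18 and the ovarian genes Fshr, Inha, Zp3 and Gdf9 were between 2.89 and 4.53, and of these Gdf9 fell by 0.58, from 3.72 ± 0.22 to 3.14 ± 0.23 (SD, n = 3; limma adjusted p = 0.0191). Its mean over all arrays, 3.43, lay below the level called dim further on, and its groups were only 0.09 apart.

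A protein destined for secretion is recognised while it is being made by the signal recognition particle (SRP), which brings the ribosome to the Sec61 channel of the ER. Folded cargo leaves the ER in vesicles with a COPII coat, whose inner layer holds Sec23 and Sec24 and whose outer cage holds Sec13 and Sec31. Vesicles with a COPI coat, recruited by small GTPases of the ARF family, carry escaped ER proteins back and move material within the Golgi. Cargo receptors of the p24 (Tmed) and lectin (Lman) families select what is loaded, TRAPP complexes tether vesicles to the Golgi, and SNARE proteins such as syntaxins and VAMPs drive fusion.

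Values are log2 intensities of a probe set as deposited, so 1 unit is a 2-fold change. Differences are without minus with putrescine, tested with limma over all 29700 probe sets, and a gene is said to have risen or fallen when its Benjamini-Hochberg adjusted p was under 0.05. Probe sets differ in their response, so levels of different genes were not compared. The median level of 17 markers of other tissues, 3.78, is used as the marker level, near or below which a probe set is called dim. Of these markers 1 rose and 1 fell: Apoa2, an apolipoprotein of liver, from 5.24 ± 0.12 to 5.93 ± 0.13 (SD, n = 3; limma adjusted p = 0.00145), and Tnnt2, cardiac troponin T, from 6.21 ± 0.23 to 4.91 ± 0.06 (SD, n = 3; limma adjusted p = 0.000158). Without both, the median was 3.72. Of the 88 genes, Stx19 alone lay below that level. Array medians were 4.92 to 4.98, and arrays correlated at 0.9957 to 0.9962 within groups and 0.9856 to 0.9878 between them. No array stood apart.

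Of the 88 genes, 28 fell and 16 rose without putrescine, and 44 did not pass the test. The share that changed was 50%, against 24.4% of all probe sets and 35.2% of probe sets above the marker level. The share that fell was 31.8%, against 11.2% of all probe sets and 16.2% of those above the marker level. The share that rose was 18.2%, against 13.2% of all probe sets and 19% of those above the marker level. Rises were thus no more frequent than among probe sets above the marker level. The median value of the 88 genes was 8.68, against 4.94 over all probe sets. Neither comparison set, here or below, was matched to the genes in level. The median log2 difference over the 88 genes was -0.057, beside 0.0067 over all probe sets. Changes of at least 1.5-fold were seen in 15 genes (17%, against 10.5% of all probe sets), 8 lower and 7 higher, and only Stx5 among the 88 passed 2-fold. Without overlap between the groups were 60 of the 88 genes (68.2%, against 37.5% of all probe sets), and these included all 44 that changed.

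**Figure D1:**
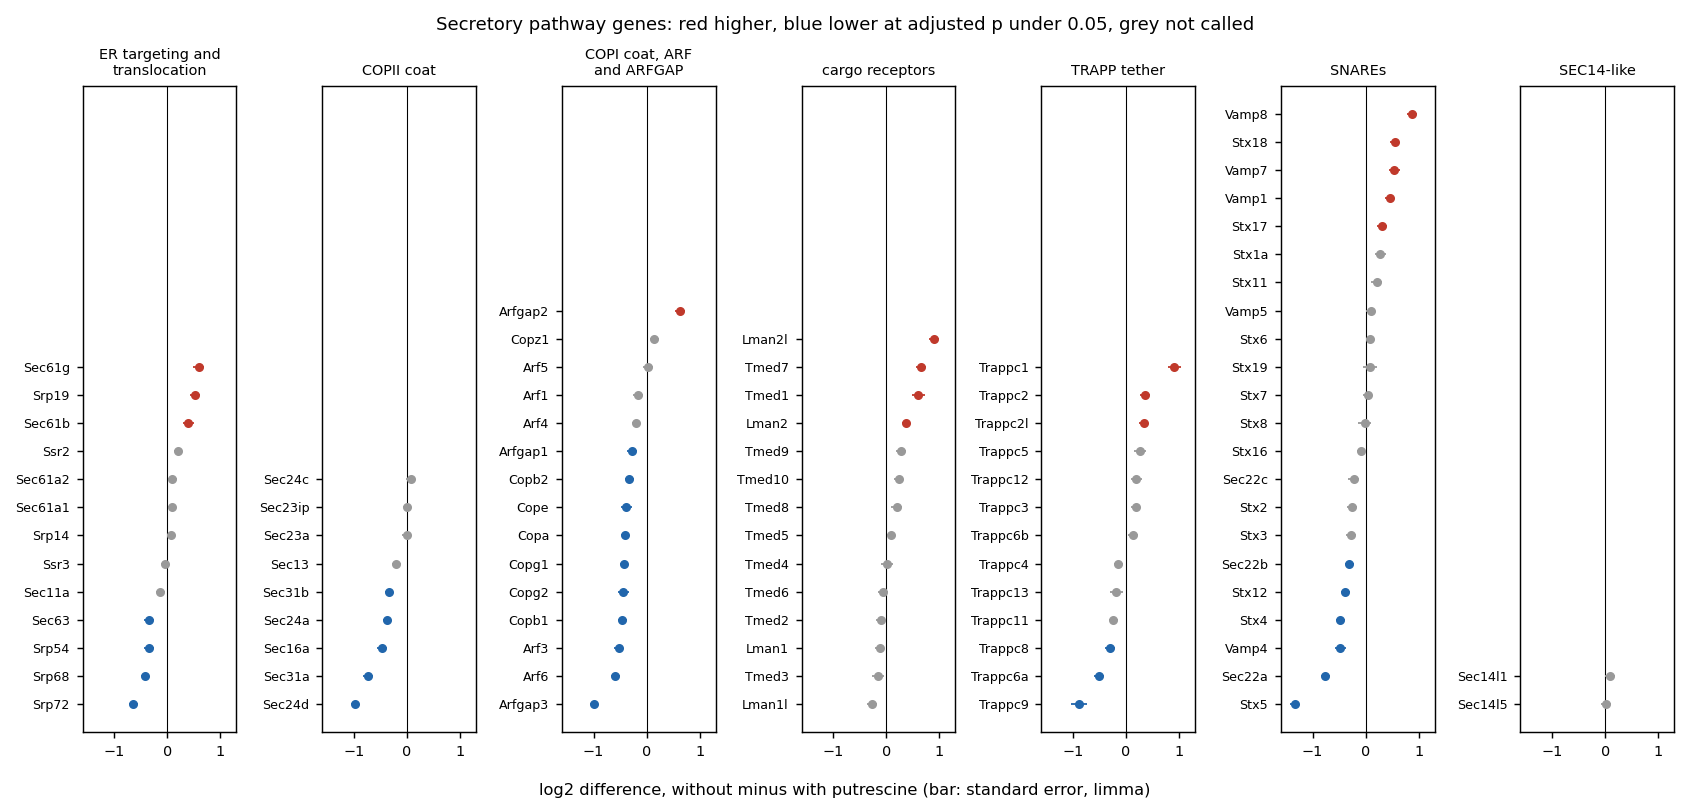
Log2 difference, without minus with putrescine, of each of the 88 genes (points) with the standard error of the limma fit (bars), by role. Red genes rose and blue genes fell at adjusted p under 0.05: in both coat panels most points lie left of 0, and among the cargo receptors the 4 coloured points lie right of it.

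Directions were unequal among the roles. In the COPII class 5 of 9 genes fell (55.6%) and 0 rose. In the class of COPI, ARF and ARFGAP genes 10 of 15 fell (66.7%) and 1 rose. Among cargo receptors 4 of 14 rose (28.6%) and 0 fell. Beside these, 13.2% of all probe sets rose and 11.2% fell, and 19% and 16.2% of those above the marker level. The small counts of the cargo receptors were not tested against these shares. At an unadjusted p under 0.05 in limma, 0 COPII genes were higher and 1 cargo receptor was lower. Genes of ER targeting and translocation (3 higher and 4 lower of 13), TRAPP subunits (3 and 3 of 13) and the SNARE class (5 and 6 of 22) moved in both directions. The SNARE class was set by symbol and takes in Sec22a and Sec22c, whose action as SNAREs was not checked. With 1 array left out in turn, the falls numbered 7 to 9 among COPI, ARF and ARFGAP genes and 4 to 5 among COPII genes. The falls in ER targeting and translocation numbered 2 without P2, P3 or N2, and the TRAPP rises 1 without P1, N1 or N3. The difference between the classes was not tested. In bulk RNA a change in every cell and a change in some of the cells cannot be told apart.

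**Figure D2:**
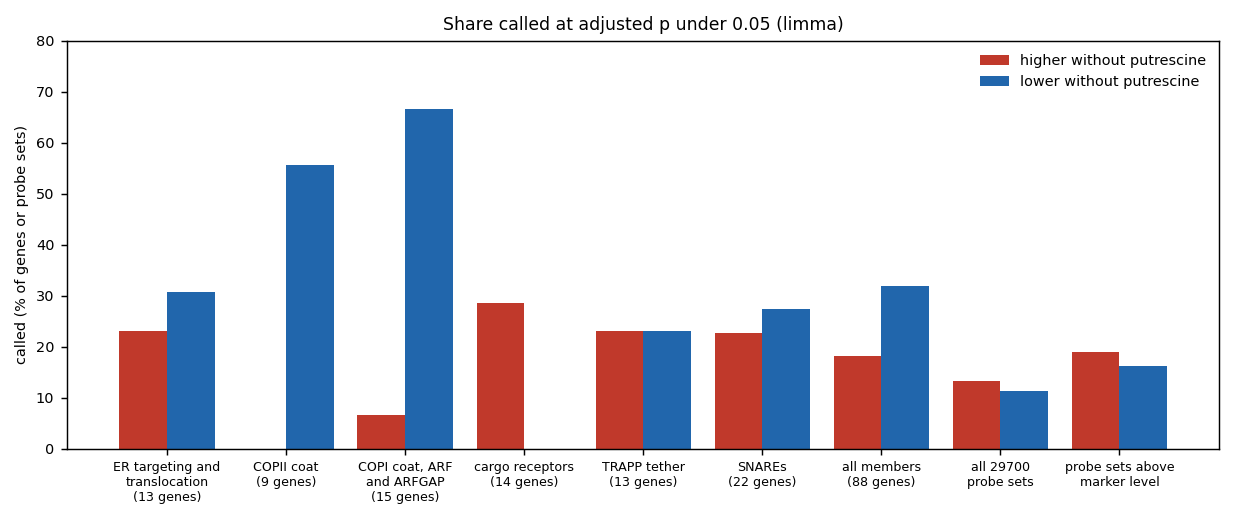
Share of genes (%) that rose (red) or fell (blue) without putrescine in each class, in all 88 genes, in all 29700 probe sets and in the probe sets above the level of other-tissue markers. The blue bars of COPII (55.6%) and of COPI, ARF and ARFGAP genes (66.7%) stand above the 16.2% of probe sets above the marker level. The cargo receptors have a red bar of 28.6%, beside 19% of probe sets above the marker level, and no blue one.

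Among the COPII genes, Sec24d, a cargo-binding subunit of the inner coat, changed most. Its values (probe set 17958625) were 10.03, 10.01 and 10.02 with putrescine and 9.04, 9.06 and 9.03 without. The arrays of a group lay within 0.03 of each other, and the gene was 1.97-fold lower (log2 difference -0.98, SE 0.08; limma adjusted p = 7.66e-05). Sec31a, of the outer cage (probe set 17956959), read 10.39, 10.43 and 10.35 with putrescine and 9.71, 9.74 and 9.51 without. N3 was the lowest array, the groups did not overlap, and the gene was 1.67-fold lower (limma adjusted p = 0.000595).

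Sec16a, the scaffold of ER exit sites, fell from 8.38 ± 0.07 to 7.91 ± 0.12 (SD, n = 3; log2 difference -0.48). Sec24a, a paralog of Sec24d, fell by 0.38, from 9.05 ± 0.03 to 8.66 ± 0.05 (SD, n = 3). The third measured paralog, Sec24c, had a difference of 0.07 with overlapping groups (limma adjusted p = 0.663). The Sec24 family therefore held 2 genes that fell and 1 that did not pass, and a test between paralogs was not made.

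Sec31b, the paralog of Sec31a, fell by 0.34, but its values of 3.57 to 3.99 were about the marker level. Leaving out P3 or N2 ended the call (adjusted p 0.0529 at most). Sec13, the partner of Sec31 in the cage, had -0.20 without overlap between the groups but did not pass the test (limma adjusted p = 0.122). Sec23a, the inner-coat subunit that stimulates GTP hydrolysis by SAR1, had a difference of -0.01, and Sec23ip, a Sec23-binding protein, 0.00.

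Of the 7 coatomer genes measured by the rule, 6 fell, with differences from -0.33 to -0.46. Among probe sets above the marker level 16.2% fell. Copa, the alpha subunit (probe set 18069137), gave 10.81, 10.84 and 10.86 with putrescine and 10.41, 10.45 and 10.42 without. These arrays differed by no more than 0.05 within a group, and Copa was 1.33-fold lower (log2 difference -0.41, SE 0.08; limma adjusted p = 0.00467). The beta subunit gene Copb1 fell by 0.46, and the genes of both gamma subunits, Copg1 and Copg2, fell by 0.42 and 0.44.

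The remaining coatomer genes were less uniform. Copb2, the beta-prime subunit, fell by 0.33, a call that did not hold with P2 or N2 left out (adjusted p 0.0584 at most). Cope, the epsilon subunit, fell by 0.38. Leaving out P1, P3, N2 or N3 ended the call (adjusted p 0.0828 at most). Copz1, the zeta subunit, had 0.14, with all arrays without putrescine above those with it, and did not pass the test (limma adjusted p = 0.271).

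**Figure D3:**
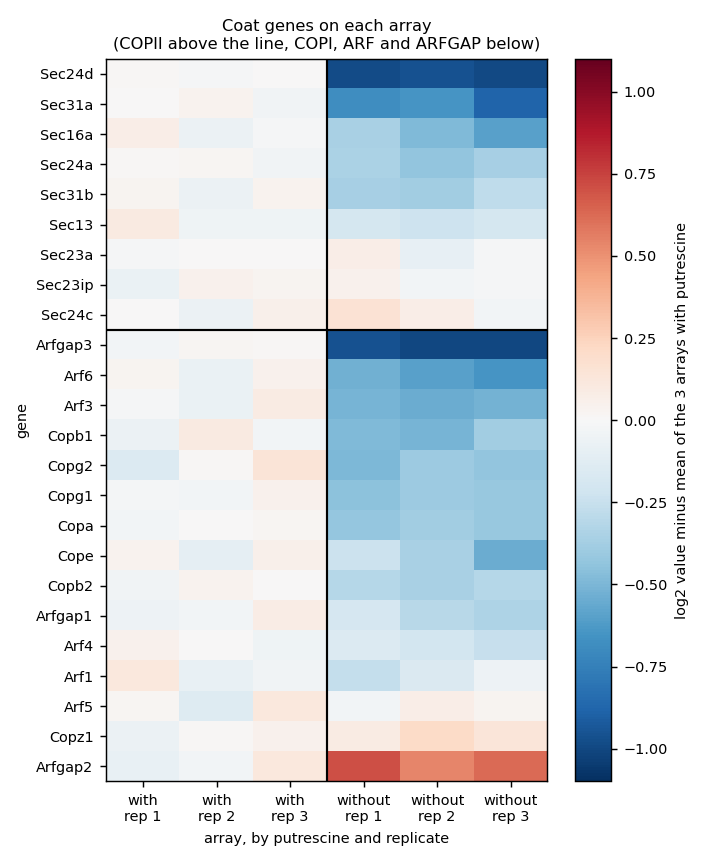
Log2 value of each gene of both coat classes on each array (rep 1 to 3 with are P1 to P3, without N1 to N3) minus its mean over the 3 arrays with putrescine. COPII genes are above the line. Below it are COPI genes and the ARF and ARFGAP genes, which regulate the coat and are not subunits of it. The 3 columns without putrescine are blue for most genes, deepest for Sec24d and Arfgap3, near white for Sec23a, Sec23ip and Arf5, and red for Arfgap2.

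The 3 ARFGAP genes, whose products switch ARF off and so trigger uncoating, split in direction. Arfgap3 (probe set 18007966) read 9.54, 9.59 and 9.58 with putrescine and 8.61, 8.57 and 8.57 without, with every array of one group almost 1 unit from the other. It was 1.98-fold lower (log2 difference -0.99, SE 0.08; limma adjusted p = 7.69e-05). Arfgap2 (probe set 18093354) went the other way, from 7.62, 7.67 and 7.82 to 8.41, 8.24 and 8.33. Its groups were at least 0.42 apart, and it was 1.54-fold higher (limma adjusted p = 0.00144), the only gene of either coat class to rise. Arfgap1 had -0.28 at the edge of the threshold (limma adjusted p = 0.0485). The call held with none of the 6 arrays left out in turn, nor in 3 of the other alternatives, and a second probe set of the gene, at -0.31, did not pass (limma adjusted p = 0.179).

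Among the ARF GTPases, 2 of 5 fell, beside 16.2% of probe sets above the marker level. Arf6, which acts at the plasma membrane and endosomes (probe set 17954375), gave 10.83, 10.72 and 10.84 with putrescine and 10.27, 10.20 and 10.15 without. The groups were well separated, and Arf6 was 1.51-fold lower (limma adjusted p = 0.00114). Arf3, a close relative of the COPI-recruiting Arf1, fell from 9.61 ± 0.08 to 9.09 ± 0.02 (SD, n = 3; log2 difference -0.53). Arf4, a Golgi ARF, had -0.20 with no overlap (limma adjusted p = 0.115), and passed the test after quantile normalization and with a trended, robust prior. Arf1, at -0.16, and Arf5, at 0.02, had overlapping groups. The paralogs of this family are close in sequence, so probes could read more than 1 of them, which was not checked here.

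Cargo receptors rose or did not pass. Lman2l, an ER lectin that binds high-mannose glycoproteins (probe set 18085076), gave 8.10, 7.98 and 8.01 with putrescine and 8.82, 9.08 and 8.86 without. N2 was the highest array, and the gene was 1.85-fold higher (log2 difference 0.89, SE 0.10; limma adjusted p = 0.000318). Lman2, a related lectin of the ER-Golgi route, rose by 0.37, from 9.65 ± 0.03 to 10.02 ± 0.05 (SD, n = 3). The best known lectin receptor of the family, Lman1 (ERGIC-53), had -0.13 with overlapping groups (limma adjusted p = 0.389). Lman1l had -0.27 at values of 3.68 to 4.17, about the marker level, and did not pass (limma adjusted p = 0.0804). Over probe sets above the marker level alone, its adjusted p was 0.0485.

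In the p24 family, which cycles between ER and Golgi in COPI and COPII vesicles, 2 of 10 genes rose and 0 fell (4 and 0 at an unadjusted p under 0.05 in limma). Of probe sets above the marker level 19% rose and 16.2% fell, so the p24 rises were near the background share. Tmed7 (probe set 18017610) gave 11.20, 11.07 and 11.03 with putrescine and 11.78, 11.79 and 11.68 without. It was 1.57-fold higher (limma adjusted p = 0.000854), and a second probe set of Tmed7 rose by 0.53 (limma adjusted p = 0.00146). Tmed1 (probe set 18072980) was at 7.77, 7.46 and 7.70 with putrescine and 8.42, 8.25 and 8.05 without. Its arrays spread more widely than those of Tmed7 but did not overlap, and it was 1.51-fold higher (limma adjusted p = 0.00758).

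The other p24 genes had differences from -0.16 (Tmed3) to 0.27 (Tmed9). Tmed10, a core member of the p24 complex, had 0.23 with no overlap (limma adjusted p = 0.072), and Tmed9 had an adjusted p of 0.0772. Both passed with a trended, robust prior and over probe sets above the marker level. Tmed2, the partner of Tmed10, had -0.11 with overlapping groups. Tmed8 had 0.19 in the probe set that represents it (limma adjusted p = 0.203) and rose by 0.50 in its second probe set (limma adjusted p = 0.00948), so its probe sets disagreed on the call and not on the direction.

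In ER targeting, 3 of the 5 SRP genes fell, beside 16.2% of probe sets above the marker level. Srp72, a large subunit that binds the RNA of the particle (probe set 17967645), gave 11.27, 11.40 and 11.33 with putrescine and 10.63, 10.70 and 10.75 without. It was 1.56-fold lower with no overlap (log2 difference -0.64, SE 0.08; limma adjusted p = 0.000753). Srp68, which binds Srp72, fell by 0.43, from 9.51 ± 0.03 to 9.09 ± 0.03 (SD, n = 3). Srp54, which binds the signal sequence, fell by 0.35. The call did not hold with the replicate block or with P2, P3 or N2 left out (adjusted p 0.0835 at most).

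Srp19, which is needed to assemble the particle, rose instead (probe set 18015288). It went from 7.68, 7.67 and 7.49 with putrescine to 8.22, 8.09 and 8.07 without, 1.43-fold higher (limma adjusted p = 0.00384). Srp14, of the domain that pauses translation, had 0.07 with overlapping groups (limma adjusted p = 0.609).

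The small subunits of the Sec61 channel rose while its pore subunit did not pass the test. Sec61g, the gamma subunit (probe set 18051785), read 10.04, 9.68 and 9.79 with putrescine and 10.46, 10.48 and 10.33 without. P1 was the highest of the arrays with putrescine, the groups stayed apart, and the gene rose by 0.59 (SE 0.11; limma adjusted p = 0.00467). Sec61b, the beta subunit (probe set 18070597), gave 8.37, 8.20 and 8.27 with putrescine and 8.61, 8.82 and 8.60 without, 1.32-fold higher (limma adjusted p = 0.0162). Leaving out P2 or N2 ended this call (adjusted p 0.0623 at most).

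The pore subunit genes Sec61a1 and Sec61a2 had 0.08 and 0.09 with overlapping groups. Sec63, which couples the channel to the chaperone BiP in the ER lumen, fell by 0.35. The call did not hold with the replicate block or with any single array but N3 left out (adjusted p 0.108 at most). The signal peptidase subunit gene Sec11a had -0.13. Ssr2 and Ssr3, of the translocon-associated complex TRAP, had 0.20 and -0.05, and none of these 3 passed.

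**Figure D4:**
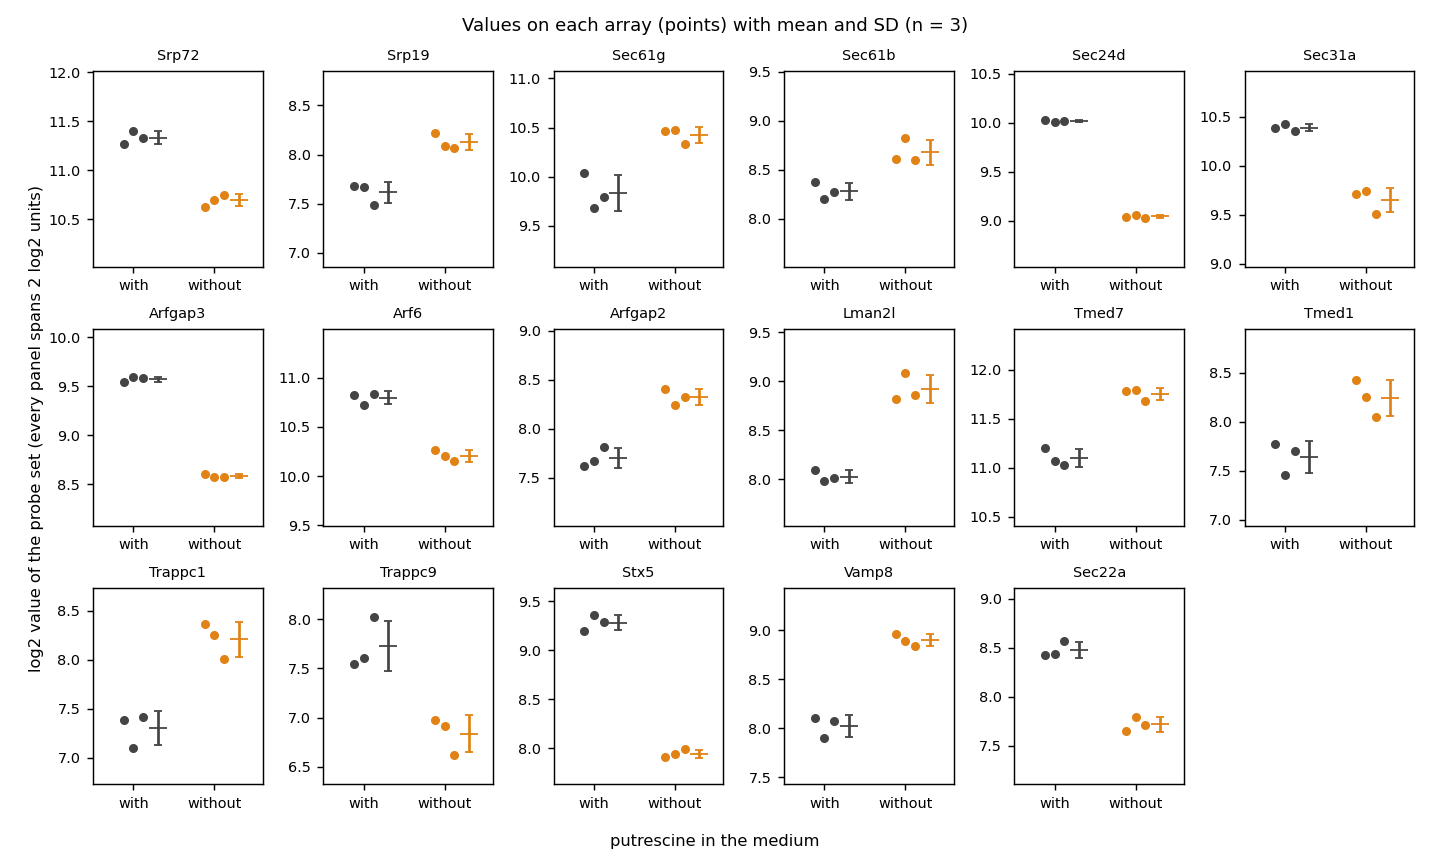
Log2 value on each array (points) with mean and SD (n = 3) for Sec61b and the other genes that passed the test and either changed at least 1.5-fold or were among the 2 with the smallest p of a class, with putrescine in grey and without in orange. Every panel spans 2 log2 units, and the groups overlap in none of the genes drawn. Sec14l1 and Sec14l5, which did not pass, are not drawn. P1 to P3 and N1 to N3 are drawn from left to right.

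TRAPP subunits moved in both directions with the same number of genes each way. Trappc1, of the core shared by all TRAPP complexes (probe set 18094034), gave 7.38, 7.10 and 7.42 with putrescine and 8.36, 8.25 and 8.01 without. It was 1.87-fold higher with no overlap (log2 difference 0.91, SE 0.12; limma adjusted p = 0.000973). Trappc9, a subunit specific to TRAPPII (probe set 17985384), went from 7.55, 7.61 and 8.02 to 6.98, 6.91 and 6.62. P3 and N3 were the most extreme arrays of their groups, the gene was 1.85-fold lower (limma adjusted p = 0.0025), and a second probe set fell by 0.82 (limma adjusted p = 0.00117).

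Trappc6a, a core subunit, fell by 0.52, while its paralog Trappc6b had 0.13 with overlapping groups (limma adjusted p = 0.436). Trappc8, specific to TRAPPIII, fell by 0.30. The call did not hold with median centring, with the replicate block or with any single array but N3 left out (adjusted p 0.13 at most). The core subunit genes Trappc2 and Trappc2l rose by 0.35 and 0.33. Neither call held with P1, N1 or N3 left out. That of Trappc2 did not hold without P2 either, nor that of Trappc2l with the replicate block. The other 7 TRAPP genes had differences from -0.24 (Trappc11) to 0.26 (Trappc5).

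Stx5 changed most of all 88 genes. This syntaxin is the SNARE of ER-to-Golgi and intra-Golgi fusion. Its probe set 17963403 read 9.20, 9.36 and 9.29 with putrescine and 7.91, 7.94 and 7.99 without. The groups were more than 1 unit apart, and the gene was 2.53-fold lower (log2 difference -1.34, SE 0.08; limma adjusted p = 3.42e-05).

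The Sec22 genes lay on the same side. Sec22b, a SNARE of ER-Golgi fusion, fell by 0.31, from 10.64 ± 0.07 to 10.33 ± 0.02 (SD, n = 3). The call did not hold with the replicate block or with P2, P3, N1 or N2 left out (adjusted p 0.0779 at most). Sec22a, its relative (probe set 18109355), gave 8.43, 8.44 and 8.57 with putrescine and 7.65, 7.80 and 7.71 without. It was 1.69-fold lower with no overlap (limma adjusted p = 0.000397). Sec22c had -0.23 with overlapping groups (limma adjusted p = 0.17).

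Other syntaxins went either way, and of 14 measured 3 fell and 2 rose. Of probe sets above the marker level 16.2% fell and 19% rose. Besides Stx5, Stx4, a SNARE of the plasma membrane, fell by 0.48 and Stx12, of recycling endosomes, by 0.38. Stx18, the ER syntaxin that receives retrograde vesicles from the Golgi, rose by 0.54, from 8.13 ± 0.03 to 8.67 ± 0.11 (SD, n = 3; limma adjusted p = 0.00235). Stx17, of autophagosomes, rose by 0.30 (limma adjusted p = 0.0434). The call did not hold after quantile normalization, with the replicate block or with any single array but P2 left out (adjusted p 0.14 at most). The syntaxins that did not pass had differences from -0.28 (Stx3) to 0.27 (Stx1a).

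Of 5 VAMP genes 3 rose and 1 fell, beside 19% and 16.2% of probe sets above the marker level. Vamp8, a SNARE of late endosomes, lysosomes and regulated secretion (probe set 18026611), read 8.11, 7.90 and 8.07 with putrescine and 8.96, 8.89 and 8.84 without. It was 1.83-fold higher with no overlap (log2 difference 0.87, SE 0.09; limma adjusted p = 0.000255). Vamp7, which acts in fusion with lysosomes and the plasma membrane, rose by 0.53, and Vamp1, a synaptobrevin, rose by 0.45 from 5.67 ± 0.01 (SD, n = 3). Vamp4, of the trans-Golgi network, fell by 0.48. Vamp5, the neighbour of Vamp8 with 0 protein-coding genes between them in the RefSeq table, had 0.10 with overlapping groups (limma adjusted p = 0.489). Vamp2 shares its probe set with another gene symbol on this array and was not counted.

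Stx17 and Sec61b are also near neighbours, with 1 protein-coding gene between them, and both rose. Trappc6b and Sec23a, likewise with 1 gene between them, did not pass. The symbol rule also admitted Sec14l1 and Sec14l5, SEC14-like proteins that resemble a yeast lipid transfer protein and are not part of vesicle coats. Sec14l1 read 8.98, 8.88 and 8.74 with putrescine and 8.98, 8.97 and 8.91 without, with overlapping groups (limma adjusted p = 0.569). Sec14l5 read 3.68, 3.87 and 3.86 with putrescine and 3.89, 3.79 and 3.77 without, about the marker level, and its groups overlapped too (limma adjusted p = 0.943).

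Genes of the same pathway that the symbol rule does not reach were followed in 8 lists of 128 symbols, of which 101 were measured. Of these 101 genes, 28 fell, 13 rose and 60 did not pass, with a median difference of -0.043. The share that changed was 40.6%, against the 24.4% of all probe sets and 35.2% of those above the marker level. The share that fell was 27.7%, against 11.2% and 16.2%, and the share that rose was 12.9%, against 13.2% and 19%. Without P3 the falls numbered 18. The coatomer delta subunit gene Arcn1 fell by 0.38, from 11.41 ± 0.04 to 11.04 ± 0.05 (SD, n = 3), a size within the range of the 6 coatomer genes above. Arfgef2, an activator of ARF at the trans-Golgi network, was 1.57-fold lower (limma adjusted p = 0.000565). In the list of COPI regulators, which includes the coat subunit gene Arcn1, 3 of 7 fell (42.9%) and 0 rose. At an unadjusted p under 0.05 in limma these counts were also 3 and 0. Of probe sets above the marker level 16.2% fell and 19% rose. The falls in this list numbered 2 with the replicate block or with any single array but P2 left out. Of 5 COPII regulators, Klhl12, a ubiquitin ligase adaptor for Sec31, rose by 0.55 and Tfg, an ER exit site protein, fell by 0.29. The call of Tfg did not hold with the replicate block or with any single array left out (adjusted p 0.0877 at most).

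Among 18 Golgi tethers and matrix genes 5 fell (27.8%) and 2 rose (11.1%), against 16.2% and 19% of probe sets above the marker level. With any single array left out the rises numbered 1. Uso1 (p115), which tethers COPI and COPII vesicles, had the largest difference in these lists. Its values (probe set 17980632) were 10.19, 10.27 and 10.12 with putrescine and 8.05, 8.26 and 8.34 without. It was 3.94-fold lower, a larger difference than that of any of the 88 genes (log2 difference -1.98, SE 0.10; limma adjusted p = 1.97e-05). Golga5, a Golgi coiled-coil tether, was 2.04-fold lower.

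Of 9 translocation accessories 5 fell (55.6%) and 1 rose (11.1%), against 16.2% and 19% of probe sets above the marker level. Srpra, the ER receptor for SRP, gave 10.66, 10.90 and 11.01 with putrescine and 9.78, 9.73 and 9.70 without, 2.17-fold lower (limma adjusted p = 0.000162). The chaperone BiP, encoded by Hspa5, was 2.05-fold lower. Tram2, a translocon-associated protein, was 1.75-fold higher (limma adjusted p = 0.000231).

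The remaining lists went both ways. Of probe sets above the marker level 19% rose and 16.2% fell. In cargo export 3 of 7 rose (42.9%) and 1 fell (14.3%), and 0 fell without P3 or N3. The rises numbered 2 after quantile normalization, with the replicate block or with any single array but N1 left out. Ergic3, a receptor of the ER-Golgi intermediate compartment, was 1.57-fold higher, and Yipf6 rose by 0.43. Of 20 SNARE partners 5 fell (25%) and 1 rose (5%). The falls numbered 3 without P3, N2 or N3, and the rises 2 without N3. Napb, a factor that helps disassemble SNARE complexes, was 1.71-fold lower and Vps45, a regulator of endosomal SNAREs, 1.51-fold higher. Clathrin and its adaptors, a coat of later steps, had 5 of 21 higher (23.8%) and 4 lower (19%), near the shares of probe sets above the marker level. The falls numbered 1 without N2 and 2 without P1, P2, P3 or N3. The clathrin light chain gene Clta was 1.61-fold higher, and Ap1g2, an adaptor subunit, was 1.98-fold lower.

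Of 14 regulators of secretory genes 4 fell and 0 rose (5 and 0 at an unadjusted p under 0.05 in limma). The share that changed, 28.6%, lay between the 24.4% of all probe sets and the 35.2% of those above the marker level. Xbp1, a transcription factor of the unfolded protein response that is known to raise secretory pathway genes, gave 9.36, 9.49 and 9.40 with putrescine and 8.26, 8.21 and 8.08 without. It was 2.35-fold lower (log2 difference -1.23, SE 0.09; limma adjusted p = 5.41e-05). Mbtps1, the protease that activates ATF6 and CREB3 family factors in the Golgi, was 2.22-fold lower. Atf6 itself was 1.86-fold lower (limma adjusted p = 0.00013), and Eif2ak3 (PERK) fell by 0.29, a call that did not hold with the replicate block or with any single array but P2 left out (adjusted p 0.097 at most). Creb3l1 had -0.30 (limma adjusted p = 0.0661) and Creb3 0.03. Whether the fall of these regulators bears on that of the coat genes was not tested.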

How the data were processed

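The authors' deposited table holds 1 log2 value for each of 29700 probe sets on 6 arrays. Per the submitters' processing notes it came from Transcriptome Analysis Console. In the sources used here no version, summarisation, log base or genome build is given. A span of 1.55 to 13.66 and the like array medians point to normalized values in base 2, so a change in total RNA per cell would not show. The platform annotation gave 1 symbol to 16481 probe sets, several to 793 and none to 12426. limma 3.58.1 in R 4.3.3 was fitted to all probe sets (lmFit, eBayes; group as the only term; two-sided; Benjamini-Hochberg; 1 missing value was left out) and tested on simulated data. Alternatives were quantile normalization, median centring, a trended and robust prior, a filter at the marker level, a replicate block, each array left out, and the mean over a gene's probe sets. Every gene found by the rule could be named; array values are given for changes of at least 1.5-fold, for the 2 smallest p in each class and for Sec61b, and the 2 smallest p of each related list are named. The array values of Copa, 1.33-fold lower and at rank 6 by p in its class, lie outside that rule. So do Tram2, Atf6, Eif2ak3, Creb3l1 and Creb3. All were picked with their values known. The members, classes and lists were chosen with earlier results of these data known. Same-numbered arrays showed no shared shift (correlation of same-numbered deviations 0.045, -0.10 and -0.020, and of different numbers -0.12 to 0.15). This does not show that same-numbered flasks were handled separately. Promoters and proteins were not used here.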

Additional observations from a re-analysis of the deposited data

How the results depend on the processing

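Over 12 alternatives, 32 of the 44 genes that changed kept their call and direction in all, 12 lost the call in at least 1, and 0 of the 44 changed sign. With 1 array left out, the 28 falls became 20 to 26 and the 16 rises 13 to 15, the falls in ER targeting and translocation (4) 2 to 4, the TRAPP rises (3) 1 to 3, and the falls among related genes (28) 18 to 22. The COPI, ARF and ARFGAP falls (10) became 7 to 9 and the COPII falls (5) 4 to 5. The replicate block gave 23 falls and 14 rises, and 2 falls in ER targeting and translocation, with Srp54 and Sec63 lost. It changed the calls of 7 of the 88 genes in all. Of the related lists, the SNARE partners' rises (1) were 4 with a trended, robust prior and 3 above the marker level, the COPII regulators' rises (1) 2 with that prior and falls (1) 0 with the block, and the Golgi tethers' rises (2) 1 with the block or quantile normalization. The cargo export rises (3) were 2 with the block or quantile normalization, and the COPI regulators' falls (3) were 2 with the block. Over probe sets above the marker level, 1 cargo receptor, Lman1l, was called lower. Of the 44 genes not called, 13 were called in at least 1 alternative. Some differences near 0 changed sign, never with a call. Tmed4 was at -0.017 after quantile normalization and Sec23a at 0.0033 after median centring. With 1 array left out, Tmed4 ranged from -0.098 to 0.102, Tmed6 from -0.115 to 0.010, Arf5 from -0.047 to 0.083, Sec23a from -0.053 to 0.032, Sec14l5 from -0.048 to 0.047, Stx7 from -0.022 to 0.083 and Stx8 from -0.147 to 0.078. The causes were not tested. With 3 arrays a group, the precision left differences between -0.28 and 0.27 uncalled, which does not show that those genes were unchanged.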
